A study of Mus musculus with 3 samples.

Results

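Promoters of long intergenic non-coding RNA (lincRNA) genes were described in the liver of mouse embryos. Members were the windows of 1000 bp on either side of the transcription start sites (TSSs) of genes typed as lincRNA in the GENCODE M21 basic annotation of mouse build mm10, kept where the TSS lay more than 2000 bp from the TSS of every protein-coding transcript. The rule left 6165 windows of 5442 genes, out of 6669 windows of 5854 lincRNA genes and out of 77221 windows of 55413 genes of every type. Open chromatin had been mapped by DNase-seq, which reads the ends left where the nuclease DNase I cut DNA that was not packed away. All samples came from liver tissue at embryonic day 13.5, and the mice were wild-type, strain C57BL/6N,129, with an A20 yeast artificial chromosome (YAC) present in a single copy. The 3 libraries formed 1 group with no treated or control arm, and the labels number them as biological replicates 1, 2 and 3 from separate biosamples. The labels give the same donor identifier for all 3, so whether the spread between libraries is technical or between embryos is not known, and the sex of the embryos was not recorded.

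LincRNAs are spliced or unspliced transcripts made by RNA polymerase II that do not code for protein and whose genes lie apart from protein-coding genes. Some act in the nucleus, such as Xist, which coats the inactive X chromosome, or Neat1, the scaffold of paraspeckles, and others are mainly hosts of microRNAs or small nucleolar RNAs. Many are made at low levels and in few cell types, and the liver of the embryo at this stage is both the main site of red cell formation and the place where hepatoblasts grow.

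The libraries differed in how much was called. Replicate 1 had 34369 peaks and 89836 footprints, replicate 2 had 122281 peaks and 342756 footprints, and replicate 3 had 60862 peaks and 156638 footprints, where a footprint is a short stretch inside open chromatin that is protected from cutting. Read depth per library is not given in the sources used here. Promoter peaks were found at 7, 8 and 8 of 8 red cell genes (replicates 1, 2 and 3 in that order) and at 0, 7 and 4 of 8 hepatoblast genes, and the albumin gene Alb had none in any library. Of 6 neural genes 2, 6 and 2 had a peak, and of 6 muscle genes 1, 5 and 2. Over all 21851 protein-coding genes the shares with a promoter peak were 54.0%, 67.3% and 56.4%. The hepatoblast, neural and muscle lists each had their highest count in replicate 2, the library with the most peaks, and the part of cell makeup in the values below was not tested.

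The sequences of 8 members are shown because they stand for the kinds of lincRNA promoter found. The set holds strong CpG-dense peaks (1700096K18Rik, 6720427I07Rik, Malat1, Gm31812), peaks called in replicates 2 and 3 and not in replicate 1 (Gm12107, H19), and peaks in windows with very few CpG sites (Gm31452, Gm20670). Each is the strongest peak of replicate 2 at that gene, read from the RefSeq GRCm38.p6 (mm10) assembly and written 5′ to 3′ on the strand of the gene. Capitals mark matches, on either strand, to 6 of the 16 short motifs that were searched: GGGCGG for SP factors, CCAAT for NFY, CCGGAAG for ETS factors, AGATAA for the family of GATA factors, CCACACCC for KLF factors and TGAGTCA for NFE2 and AP-1, which share these letters. The positions, in the order printed, are chr5:25529561-25529820 on the plus strand, chr13:48546561-48546800 on the minus strand, chr19:5803541-5803680 on the minus strand, chr1:52113721-52113980 on the minus strand, chr11:31831601-31831840 on the plus strand, chr7:142578141-142578380 on the minus strand, chr13:107063521-107063720 on the plus strand and chr7:64057961-64058240 on the plus strand.
1700096K18Rik: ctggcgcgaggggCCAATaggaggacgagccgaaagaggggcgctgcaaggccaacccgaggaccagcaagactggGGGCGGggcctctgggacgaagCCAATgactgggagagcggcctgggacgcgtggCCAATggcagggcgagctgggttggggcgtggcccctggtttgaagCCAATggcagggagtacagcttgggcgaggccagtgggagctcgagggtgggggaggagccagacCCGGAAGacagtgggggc
6720427I07Rik: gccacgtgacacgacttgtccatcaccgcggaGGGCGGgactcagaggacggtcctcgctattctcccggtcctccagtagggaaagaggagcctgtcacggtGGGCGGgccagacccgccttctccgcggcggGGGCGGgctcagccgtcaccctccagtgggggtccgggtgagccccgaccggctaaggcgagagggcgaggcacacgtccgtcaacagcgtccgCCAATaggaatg
Malat1: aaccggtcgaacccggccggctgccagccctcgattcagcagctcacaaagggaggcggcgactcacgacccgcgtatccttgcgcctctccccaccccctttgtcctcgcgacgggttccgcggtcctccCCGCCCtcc
Gm31812: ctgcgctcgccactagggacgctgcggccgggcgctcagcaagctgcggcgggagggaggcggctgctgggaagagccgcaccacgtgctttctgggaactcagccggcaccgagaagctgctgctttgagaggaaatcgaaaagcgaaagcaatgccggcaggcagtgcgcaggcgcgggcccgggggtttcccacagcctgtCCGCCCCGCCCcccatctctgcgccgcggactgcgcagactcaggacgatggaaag
Gm12107: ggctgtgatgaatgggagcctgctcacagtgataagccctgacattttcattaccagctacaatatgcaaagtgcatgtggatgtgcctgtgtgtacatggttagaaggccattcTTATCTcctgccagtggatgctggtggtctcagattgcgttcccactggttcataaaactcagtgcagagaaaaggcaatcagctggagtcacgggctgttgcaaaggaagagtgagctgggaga
H19: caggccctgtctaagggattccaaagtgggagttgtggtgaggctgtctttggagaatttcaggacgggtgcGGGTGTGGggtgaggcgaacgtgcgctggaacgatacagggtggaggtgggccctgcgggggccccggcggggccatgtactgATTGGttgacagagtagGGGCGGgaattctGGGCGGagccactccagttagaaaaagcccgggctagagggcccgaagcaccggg
Gm31452: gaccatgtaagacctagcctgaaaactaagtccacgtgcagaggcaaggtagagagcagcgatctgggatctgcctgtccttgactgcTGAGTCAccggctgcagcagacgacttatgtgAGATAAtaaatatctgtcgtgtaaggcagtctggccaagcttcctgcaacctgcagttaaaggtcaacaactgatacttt
Gm20670: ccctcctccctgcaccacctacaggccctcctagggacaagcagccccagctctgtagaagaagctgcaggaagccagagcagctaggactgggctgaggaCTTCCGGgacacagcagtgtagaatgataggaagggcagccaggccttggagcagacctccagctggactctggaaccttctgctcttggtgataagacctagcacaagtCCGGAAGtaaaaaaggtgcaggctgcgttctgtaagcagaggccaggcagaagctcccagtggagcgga
The peak of 1700096K18Rik lay from 452 to 193 bp upstream of the TSS and held 16 CpG sites, 4 CCAAT matches, 1 SP match and 1 ETS match. In 6720427I07Rik the peak lay from 300 to 61 bp upstream and held 25 CpG sites and 3 SP matches. The Malat1 peak was farther out, from 1009 to 870 bp upstream of the annotated TSS in whose window it falls, with 17 CpG sites in 140 bp. The Gm31812 peak ran across the TSS and held 27 CpG sites. By contrast the Gm12107 peak held 2 CpG sites and 1 GATA match, and the Gm31452 peak held 5 CpG sites with 1 GATA match and 1 NFE2 and AP-1 match. The H19 peak reached the TSS and held 1 KLF and 2 SP matches.

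Few lincRNA promoters had a peak. A window had a peak where at least 1 bp of a peak in the authors' longer list overlapped it, and a gene had one where any of its member windows did. In replicate 1, 369 of 5442 lincRNA genes (6.78%) had a promoter peak, in replicate 2 it was 926 (17.02%) and in replicate 3 it was 608 (11.2%), a mean of 11.7% ± 5.13 (SD, n = 3). The order of the libraries was that of their numbers of peaks. When each library was limited to its 34369 strongest peaks, the shares were 6.78%, 6.62% and 6.38%, a mean of 6.59% ± 0.203 (SD, n = 3).

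A peak in all 3 libraries was found at 325 lincRNA genes (5.97%), against 25.2% of genes of every type. Without replicate 1, 556 lincRNA genes had a peak in both remaining libraries. Another 265 genes had a peak in 2 libraries and 398 in 1 library, of which 338 had it in replicate 2 alone. No peak was listed in any library for 4454 genes (81.8%), which is the absence of a listed peak and not a measurement of closed chromatin. Of the lincRNA genes without a peak in a library, 0.414%, 1.88% and 0.869% in replicates 1, 2 and 3 still held a position that the authors' false discovery rate file lists, at a rate of at most 0.05. Of the lincRNA genes with a peak anywhere, 32.9% had one in all 3 libraries, and the same share of protein-coding genes was 75.7%. Of the 325 genes, 26 shared their strongest replicate 2 peak with another lincRNA gene, so that they rest on 312 distinct peaks of that library. The peaks of a gene in the 3 libraries were not required to overlap each other. A TSS of another gene lay in the windows of 390 lincRNA genes, 63 of them among the 325, and such genes had a peak in 25.04% ± 7.83 (SD, n = 3).

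Protein-coding genes had a promoter peak more often, with shares of 54.0%, 67.3% and 56.4% over 21851 genes. The lincRNA share was lower in each library, with differences of -47.2, -50.3 and -45.3 percentage points. The mean difference was -47.6 points ± 2.55 (SD, n = 3), with p = 0.25 in an exact two-sided paired sign-flip permutation test, the smallest value that 3 libraries allow. Windows of the same lincRNA genes moved by 20000 bp to either side and kept only where they lay away from every annotated TSS gave the local background: 1.32%, 5.44% and 2.91% of 9851 had a peak. LincRNA promoters exceeded it by 5.46, 11.6 and 8.26 points, a mean of 8.43 ± 3.06 (SD, n = 3; exact paired sign-flip permutation p = 0.25). With equal numbers of peaks the mean excess was 5.18 points ± 0.301 (SD, n = 3). A peak in all 3 libraries was present in 102 of the moved windows (1.04%).

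LincRNA genes that the distance rule left out had peaks more often. All TSSs of 412 lincRNA genes lay within 2000 bp of a protein-coding TSS, and 71.4% ± 8.88 (SD, n = 3) of them had a promoter peak, 253 (61.4%) in all 3 libraries. By their definition these windows lie beside or over a coding promoter. Among other gene types held to the same distance rule, 25.3% ± 8.23 of 500 processed transcript genes, 14.0% ± 7.26 of 1990 antisense genes, 6.53% ± 3.40 of 2911 TEC genes (a GENCODE class of transcripts that still await experimental evidence) and 4.24% ± 3.40 of 9760 processed pseudogenes had a peak (SD, n = 3 each). The differences between lincRNA genes and each of these types had the same sign in the 3 libraries, with lincRNA genes below processed transcript and antisense genes and above TEC genes and pseudogenes, and exact paired sign-flip permutation p = 0.25 throughout. For antisense genes the difference was small in replicate 1, at -0.305 points, and larger in replicate 2, at -4.54 points.

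**Figure D1:**
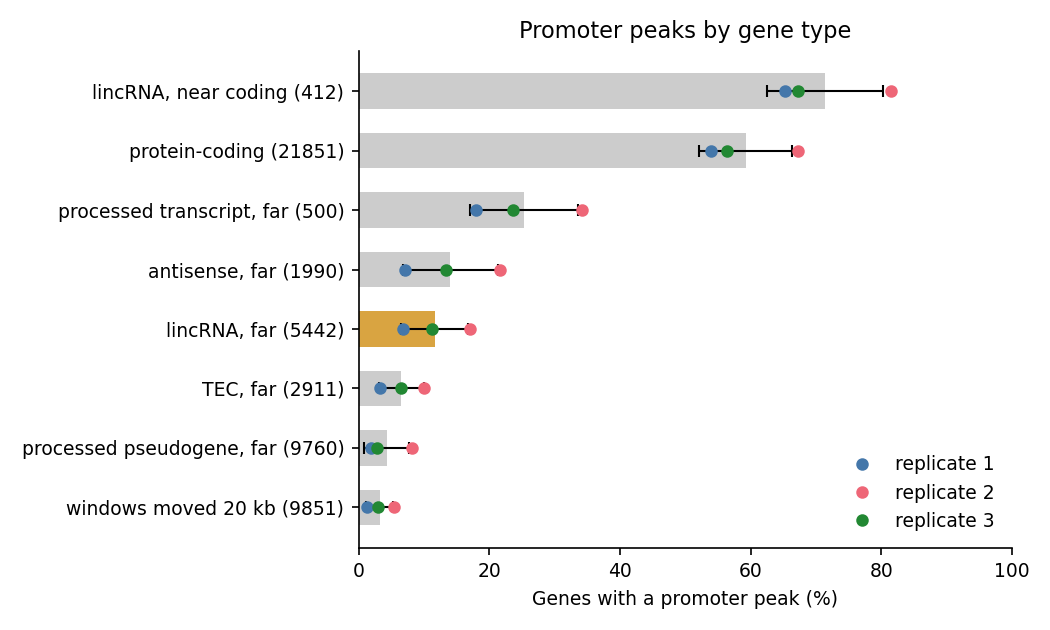
Percentage of genes with a promoter peak by gene type, with the number of genes (or moved windows) in brackets; bars are means over the 3 libraries, whiskers the SD, and points the single libraries. "Far" means over 2000 bp from a protein-coding TSS. Far lincRNA genes averaged 11.7%, between moved windows at 3.22% and protein-coding genes at 59.2%.

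The share of lincRNA genes with a peak rose with CpG content. The CpG count used is that of the most CpG-dense window of each gene. LincRNA genes with no peak had a median of 18 CpG sites, those with a peak in 1 or 2 libraries 28 and 29, and those with a peak in all 3 had 43, against 93 at protein-coding genes with a peak in all 3. Among lincRNA genes with fewer than 10 CpG sites, 1.08% ± 0.972 had a peak, and among those with at least 80 it was 70.2% ± 10.04 (SD, n = 3 each). The group of 799 genes with fewer than 10 held no gene with a peak in all 3 libraries, while 61 of the 104 genes with at least 80 had one.

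Below 20 CpG sites lincRNA and protein-coding promoters had close and low shares, and at higher counts the lincRNA share was lower. With 10 to under 20 sites, 4.16% ± 2.96 of lincRNA and 4.63% ± 3.68 of protein-coding genes had a peak. With 40 to under 80 sites, the lincRNA share was 26.3%, 47.6% and 32.8% in replicates 1, 2 and 3, and the protein-coding share was 69.5%, 86.7% and 73.0%. With 20 to under 40 sites, 13.6% ± 7.04 of lincRNA and 24.9% ± 11.8 of protein-coding genes had a peak (SD, n = 3 each). With 80 or more sites, the shares were 70.2% ± 10.04 and 88.7% ± 6.75 (SD, n = 3 each). Protein-coding genes were also weighted by bins of 0 to 9, 10 to 19, 20 to 39, 40 to 79 and 80 or more sites. CpG counts were not matched within a bin. Windows per gene were not matched either, with means of 1.13 for lincRNA and 1.90 for protein-coding genes. Among lincRNA genes the share with a peak was 10.6% ± 4.81 with 1 window and 26.6% ± 6.22 with 3 or more (SD, n = 3 each). What the number of windows contributes to the shares was not tested. Weighting to the bins of lincRNA genes gave an expected share of 20.5% ± 7.10 (SD, n = 3). The lincRNA share was lower than that in each library, and the difference shrank from -47.6 to -8.89 points ± 1.98 (SD, n = 3; exact paired sign-flip permutation p = 0.25).

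By a CpG-island-like definition, with GC of at least 50% and an observed to expected CpG ratio of at least 0.6, 75 lincRNA genes (1.38%) and 7154 protein-coding genes (32.7%) were CpG-rich. A peak was present at 70.7% ± 9.33 of the CpG-rich lincRNA genes and at 90.6% ± 6.01 of the CpG-rich protein-coding genes (SD, n = 3 each). Still, 281 of the 325 lincRNA genes with a peak in all 3 libraries were not CpG-rich.

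**Figure D2:**
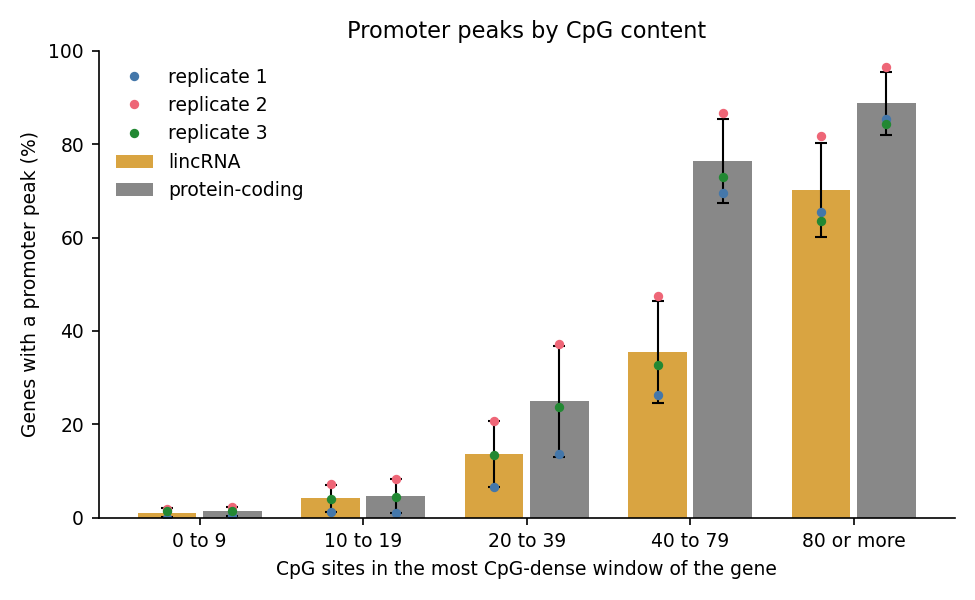
Percentage of lincRNA and protein-coding genes with a promoter peak, by the number of CpG sites in the most CpG-dense window of the gene; bars are means over 3 libraries, whiskers the SD and points the libraries. Both rise with CpG count, and the gap is widest at 40 to under 80 sites, at 35.6% against 76.4%.

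Distance to coding genes also moved with the share. The median distance to the nearest protein-coding TSS was 92685.5 bp for lincRNA genes with no peak and 32533 bp for those with a peak in all 3 libraries. A peak was present at 21.2% ± 7.37 of the 217 genes up to 5000 bp from a coding TSS, 17.8% ± 7.03 of the 818 up to 20000 bp, 14.5% ± 5.95 of the 2025 up to 100000 bp, and 6.28% ± 3.62 of the 2382 beyond that (SD, n = 3 each). The median CpG count fell over the same classes, from 24 to 17. Where the nearest coding gene itself had a promoter peak in all 3 libraries, 14.9% ± 6.495 of 2866 lincRNA genes had a peak, and where it had none in any library, 7.23% ± 3.45 of 1525 did. The same order held for genes over 20000 bp from a coding TSS, at 12.9% ± 6.04 and 6.29% ± 2.94. How far CpG content and distance each account for the other was not tested.

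Chromosome Y carried 548 of the lincRNA genes, of which 0.243% ± 0.279 had a peak, against 13.0% ± 5.73 on the autosomes and 9.78% ± 3.26 of the 92 on chromosome X (SD, n = 3 each). Sequences with several near-identical copies cannot be told apart by short reads. More than 50% of sampled 50-bp words were found elsewhere in the genome in the windows of 794 lincRNA genes, and 2.35% ± 0.839 of these had a peak, against 13.2% ± 5.91 of the other 4648 (SD, n = 3 each). What copied sequence contributes to the share on chromosome Y was not tested, and the sex of the embryos was not recorded.

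Signals at lincRNA promoters were low. The signal is the authors' value per peak, scaled per library, and percentiles place a lincRNA gene among the protein-coding genes of that library, as the percentage of them whose promoter signal was lower. Among the 325 genes, the signal ran from 0.213 to 62.8 with a median of 1.33 in replicate 1, from 0.160 to 123 with a median of 2.20 in replicate 2, and from 0.173 to 44.3 with a median of 1.31 in replicate 3. The medians of protein-coding genes with a peak in all 3 libraries were 3.14, 7.78 and 4.96. Across the 325 genes the Spearman correlation of signal between libraries was 0.868 for replicates 1 and 2, 0.729 for 1 and 3, and 0.923 for 2 and 3, as a description over genes that are not independent. In each library 14 lincRNA genes (0.257%) stood above percentile 90.

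Peaks sat farther from the TSS than at coding genes. The median distance of the strongest peak's centre from the TSS was 193.5, 184.5 and 170.5 bp in replicates 1, 2 and 3 for the 325 lincRNA genes, and 64.5, 60.5 and 63.5 bp for protein-coding genes. The centre lay within 100 bp of the TSS at 36.9% ± 3.33 of the lincRNA genes and at 65.3% ± 0.792 of the protein-coding genes (SD, n = 3 each). It lay upstream at 62.5% ± 1.92 and 70.6% ± 4.60. Where the windows of a gene shared their strongest peak, the TSS nearest to it was used, so more TSSs can give shorter distances. Genes with a peak in all 3 libraries had a mean of 1.33 windows for lincRNA and 2.09 for protein-coding genes. What this difference in windows contributes was not tested.

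**Figure D3:**
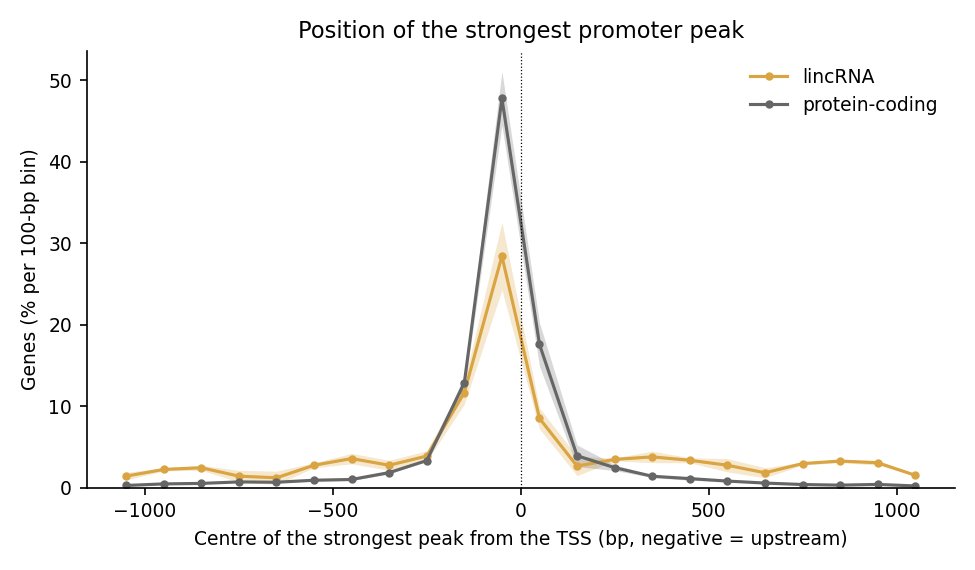
Distance of the centre of the strongest promoter peak from the TSS, in bins of 100 bp, for genes with a peak in all 3 libraries; lines are means over the 3 libraries and shaded bands the SD. LincRNA peaks gather just upstream of the TSS as protein-coding ones do, but with a lower summit and with more genes spread across the window (36.9% against 65.3% within 100 bp).

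The strongest lincRNA promoter in all 3 libraries was that of Gm42418, whose signal was 62.8, 123 and 44.3 in replicates 1, 2 and 3, above nearly every protein-coding gene. Its TSS at position 39846958 of chromosome 17 lies inside the RefSeq pseudogene Rn18s-rs5, an 18S ribosomal RNA related sequence at chr17:39846354-39848202. Of the sampled words in its window 26.5% occurred elsewhere in the genome. The 2 lincRNA genes beside it, Gm26917 and AY036118, had 245 and 179 CpG sites and no peak in any library. These were the highest counts among CpG-rich genes without a peak. With windows of 2500 bp both had one in all 3 libraries, at the percentiles of Gm42418 itself (100, 100 and 99.99). The Gm42418 peak, which starts at 39846781 in each library, lies within 2500 bp of the AY036118 TSS at 39848035. The part of ribosomal DNA sequence in the signal of Gm42418 was not tested.

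The next strongest were 1700096K18Rik and 6720427I07Rik, whose sequences are shown above. 1700096K18Rik had signals of 8.60, 34.0 and 30.3 (percentiles 99.1, 99.7 and 99.7) with 8, 18 and 9 footprints, and lies 13946 bp from the nearest coding TSS, that of Cct8l1. 6720427I07Rik had signals of 8.40, 35.7 and 30.5 (percentiles 99.01, 99.8 and 99.7) and lies 32930 bp from the nearest coding TSS. Both stood at percentile 99.01 or higher in every library, with the lowest signal in replicate 1. Tmem250-ps followed with signals of 12.8, 29.1 and 21.5, but RefSeq places an mRNA start 15 bp from its TSS, so it counts as a coding promoter in that annotation. A RefSeq mRNA start within 2000 bp was found for 150 of the 5442 genes, 30 of them among the 325.

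Malat1, an abundant nuclear RNA of splicing speckles, had signals of 9.26, 27.4 and 18.3 and percentiles of 99.5, 98.8 and 96.6. With windows of 500 bp, which leave out the distant peak shown above, its percentiles were 89.2, 81.3 and 79.1. A TSS of another gene, Gm37376 (TEC), lies in the Malat1 windows. Among the 15 strongest, the windows of Gm12762, Gm11527 and D230017M19Rik also hold a TSS of another gene. Which gene such a peak belongs to was not tested. Gm31812 had signals of 6.35, 16.7 and 12.5, all above percentile 90. Gm2885, 45206 bp from Ezr, and Gm12762, 3766 bp from Gpi1, were also above percentile 90 in every library. The other 7 of the 15 strongest (Gm20732, Gm11527, Gm10010, Gm26912, D230017M19Rik, Gm26664 and Gm26901) each fell under percentile 90 in at least 1 library. Gm10010 had the widest spread of the 15, with percentiles of 98.3, 90.8 and 87.6, and Gm26912 had 97.1, 92.1 and 86.4. With windows of 500 bp the mean percentile of Gm26664 was 57.5 ± 2.55 against 87.7 ± 2.48 (SD, n = 3).

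**Figure D4:**
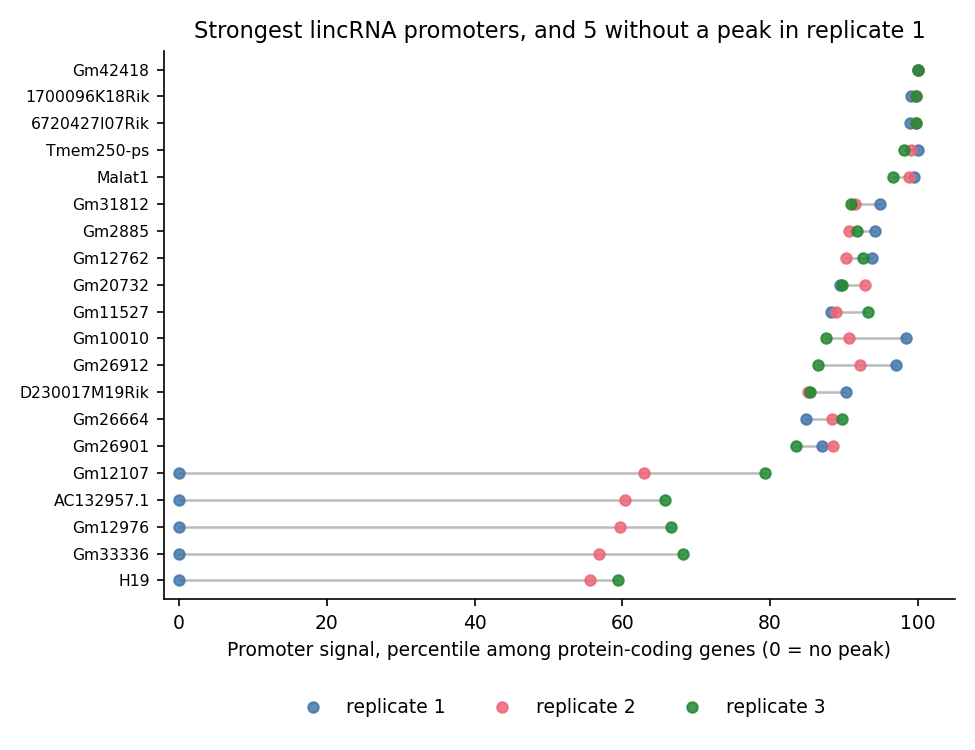
Percentile of promoter signal among protein-coding genes, per library, for the 15 strongest lincRNA promoters (top) and the 5 strongest without a peak in replicate 1 (bottom); grey lines join the lowest and highest library. The 15 lie between 83.6 and 100, and the lower 5 sit at 0 in replicate 1 and at 55.6 or more in the other libraries.

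A peak in replicates 2 and 3 and none in replicate 1 was found at 231 lincRNA genes (4.24%). The share was near that of protein-coding genes (4.49%) and of antisense genes under the same distance rule (5.73%). Gm12107, the strongest of them, had a signal of 3.97 in replicate 2 and 6.56 in replicate 3 (percentiles 62.9 and 79.3). Its peak lay from 1059 to 820 bp upstream of the TSS in replicate 2, and with windows of 500 bp the gene had no peak in any library. Gm33336 had 2.25 and 3.43 and 26 CpG sites. AC132957.1 had 3.23 and 2.91, with a RefSeq mRNA start 208 bp away, and Gm12976 had 3.06 and 3.10, with one 561 bp away. H19, the maternally expressed imprinted RNA that is abundant in fetal liver, had 1.95 and 1.66 with 7 and 1 footprints. These 5 are higher in replicates 2 and 3 by the way they were chosen.

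Peaks in CpG-poor windows formed a small group. Of the 325 genes, 16 had 10 to under 20 CpG sites. Gm31452 had 12 sites and signals of 0.985, 4.59 and 9.44, lowest in replicate 1, with 1, 4 and 6 footprints. Gm20670 had 14 sites, signals of 1.41, 4.81 and 6.31, and 4, 12 and 4 footprints. Gm12708 had 12 sites and signals of 0.537, 0.952 and 1.15, and lies 141091 bp from Jun. Gm12315 had 13 sites and signals of 1.62, 1.62 and 0.595. 1700003C15Rik had 10 sites and the lowest signal of the 325 in each library, 0.213, 0.160 and 0.173, and 86.2% of the words in its window were found elsewhere. Of these 5, 3 lost a library with the shorter of the authors' peak lists: 1700003C15Rik had a peak in replicate 2 alone, with a mean percentile of 13.4 against 40.9, Gm12708 had none in replicate 1, with 35.3 against 51.3, and Gm12315 had none in replicate 3, with 38.1 against 54.8. At the other end, 12 CpG-rich lincRNA genes had no peak in any library, and in 4 of them more than 50% of the words were found elsewhere, among them Gm40849 (79.1%) and Gm10685 (100%). Gm44970, with 121 CpG sites and 2.55% of words found elsewhere, had no peak either.

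Among 119 lncRNA names that were listed by known role, 41 were members under the rule, and 12 of them (29.3%) had a peak in all 3 libraries, against 5.97% of all lincRNA genes in the set and 25.2% of genes of every type. Another 16 had no peak in any library. The lists were drawn up with results of these data known, so the counts are a description.

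Of 5 nuclear architecture and ubiquitous RNAs, 3 (Malat1, Neat1 and 2900097C17Rik) had a peak in all 3 libraries, Lncpint had one in replicates 2 and 3, and Miat had none. Neat1 had signals of 4.69, 11.6 and 7.20 with 4, 25 and 15 footprints. Its windows hold TSSs of other genes, among them the antisense gene Frmd8os. 2900097C17Rik, the mouse Norad gene, whose RNA binds Pumilio proteins, had signals of 1.66, 3.83 and 2.47. The 3 small nucleolar RNA hosts in the set, Snhg6, Snhg12 and Snhg20, had a peak in every library. Their mean percentiles were 68.6 ± 2.74, 64.2 ± 4.98 and 64.9 ± 0.918 (SD, n = 3 libraries). The libraries were close to each other for all 3.

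The microRNA host list had 8 members, all but Mirt1 named as host genes. Of these 8, Mir142hg and Mir17hg had a peak in all 3 libraries. Mir142hg, the host of a microRNA of blood cells, had percentiles of 83.1, 81.1 and 88.1. Mir17hg, which makes a cluster of growth-related microRNAs, had 63.6, 61.0 and 58.3. With windows of 500 bp Mir17hg had no peak in replicate 1, and its mean percentile was 40.3 ± 34.9 against 61.0 ± 2.68 (SD, n = 3). Mir155hg had a peak in replicates 1 and 2 and none in replicate 3, and in replicate 2 alone with the shorter peak list. In the blood cell list 3 of 4 members had a peak in every library: Mir142hg, Lockd, which lies 8579 bp from Cdkn1b, and Pvt1, the neighbour of Myc. Lockd had percentiles of 59.8, 61.9 and 63.1 and 8, 18 and 7 footprints.

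At the X-inactivation centre, Ftx had percentiles of 77.2, 80.3 and 92.1 and Jpx had 54.4, 53.8 and 55.0. For Xist the signal was 0.531 in replicate 2 and 0.810 in replicate 3, and replicate 1 listed no peak. Among imprinted RNAs, Meg3 had a peak in replicate 2 alone and Mirg had none. With windows of 2500 bp Meg3 had a peak in every library, at a mean percentile of 56.3 ± 3.19 (SD, n = 3), and with the shorter peak list it had none. The only liver member, 9030622O22Rik, 69763 bp from Foxa2, had no peak in any library.

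The lists of other tissues are read against all lincRNA genes, of which 81.8% had no peak in any library and 6.78%, 17.02% and 11.2% had one in replicates 1, 2 and 3. Of 10 embryonic stem cell RNAs, among them Platr3 to Platr7 and Lncenc1, 9 had no peak in any library, and Platr27 had one in replicate 2, a share near that of all lincRNA genes. With windows of 2500 bp Platr22 and Platr5 had a peak in 2 libraries and Platr26 in 1. Of 7 neural RNAs 1, 5 and 0 had a peak in replicates 1, 2 and 3, and of 4 cardiac, limb and mesoderm RNAs 0, 3 and 2. Hotair had none. With windows of 500 bp Carmn and Mir9-3hg had no peak in any library, and with windows of 2500 bp Bvht had one in all 3. Of the neural coding genes 6 of 6 had a promoter peak in replicate 2, against 67.3% of all protein-coding genes. What this replicate's larger number of peaks contributes was not tested.

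**Figure D5:**
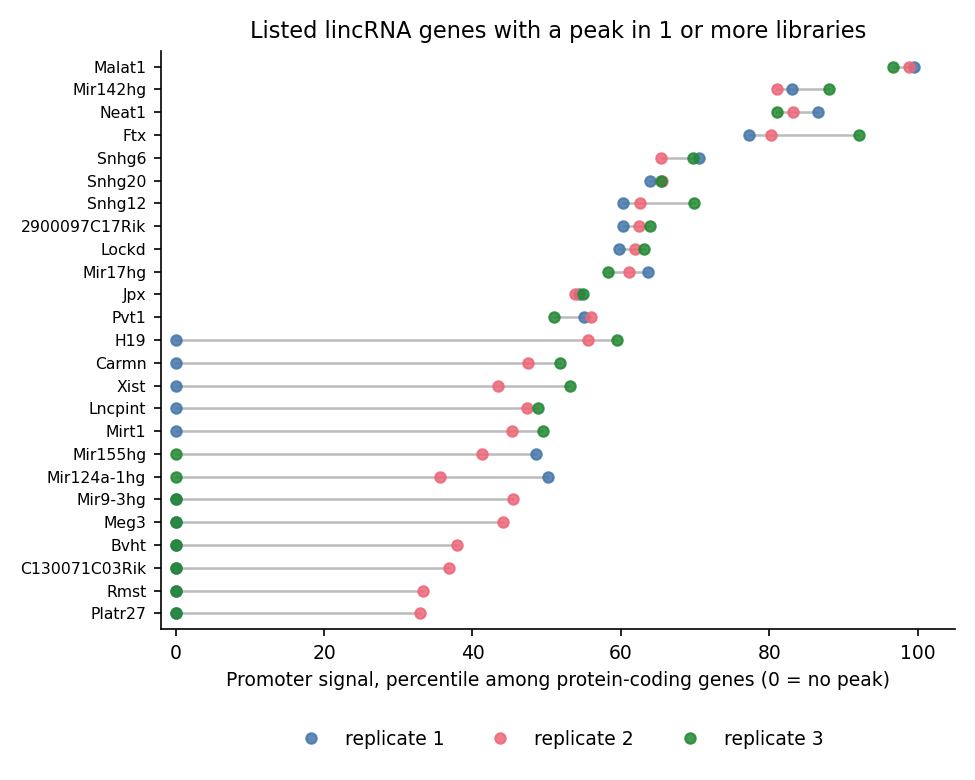
Percentile of promoter signal among protein-coding genes, per library, for the 25 listed lincRNA genes with a peak in 1 or more libraries; 0 stands for no peak and grey lines join the lowest and highest library. The 12 genes at the top have a peak in every library, and 5 lower ones lack it in replicate 1 alone.

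Footprints followed the peaks. Of the lincRNA genes 5.88% held a footprint in replicate 1, 15.1% in replicate 2 and 9.67% in replicate 3, which averages 10.2% ± 4.64 (SD, n = 3). All 3 libraries had one at 285 genes (5.24%), against 24.0% of genes of every type. Of the lincRNA genes with a peak, 87.3% ± 1.25 had a footprint, and of protein-coding genes with a peak 96.6% ± 1.08 (SD, n = 3 each). The median number per gene with a peak was 3, 3 and 2 for lincRNA genes and 5, 10 and 6 for protein-coding genes. Gm6410 had the most by the lowest library, with 17, 25 and 16, followed by Gm26901 with 17, 24 and 15. Gm11527 had 12, 20 and 13, and 9530027J09Rik had 10, 29 and 21. The windows of Gm6410 and Gm11527 also hold a TSS of another gene.

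The same footprints were not found in every library. Of 1081 footprints at lincRNA promoters in replicate 1, 568 (52.5%) overlapped a footprint in both other libraries. The counts were 523 of 4005 (13.1%) in replicate 2 and 542 of 1888 (28.7%) in replicate 3. Each count describes much the same overlap of the 3 libraries, so close counts follow from how they were taken. The percentages divide it by the number of footprints in each library, so they do not compare how well the libraries repeat. At protein-coding promoters the shares were 58.8%, 20.9% and 42.2%.

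Motif content differed between kinds of lincRNA peak and between lincRNA and coding peaks. The counts are over 300 bp about the centre of the strongest replicate 2 peak. GGGCGG was present in 58.6% of 174 lincRNA peaks of genes with at least 40 CpG sites, 21.4% of 140 with fewer, and 14.4% of 222 at genes with a peak in replicates 2 and 3 and not in replicate 1. The matching protein-coding shares were 77.2% and 34.3%, and over all replicate 2 peaks the share was 22.3%. AGATAA ran the other way: 5.75%, 15% and 20.3% in the same 3 lincRNA sets, 3.29% and 13.2% at the coding peaks, and 13.9% of all replicate 2 peaks. Replicate 2 peaks over 1000 bp from any TSS, with a median of 4 CpG sites, held AGATAA in 16.3% and GGGCGG in 12.4%. CCAAT varied little, from 32.9% to 36.8% in the lincRNA sets against 30.8% of all peaks. CCGGAAG was in 13.2%, 9.29% and 4.05% of the lincRNA sets and in 21.04% and 11.3% of the coding sets. The liver factor motif CAAAGTCCA (HNF4A) was in 1 peak of 174, 0 of 140 and 1 of 222, which is too few to compare. The median CpG count of the 300 bp was 19, 7 and 5 in the 3 lincRNA sets and 27 and 9 in the coding sets, and base composition moves with these motifs.

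Within footprints extended by 5 bp on each side, GGGCGG was in 9.12% ± 1.53 of footprints at lincRNA promoters and 16.97% ± 1.81 at protein-coding ones (SD, n = 3 each). The E-box CAGATG (TAL1) was in 1.30% ± 0.171 and 0.557% ± 0.0549. In the 300 bp about peaks it was in 16.1%, 20% and 26.1% of the 3 lincRNA sets, in the order given above. It was in 8.41% and 16.2% of the coding sets and in 22.3% of all replicate 2 peaks. CpG content was not matched between lincRNA and coding footprints. AGATAA was in 0.370%, 0.899% and 0.953% of lincRNA footprints in replicates 1, 2 and 3 and in 0.184%, 0.291% and 0.428% of coding ones. A match is a description of the letters and does not show that a factor was bound.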

How the data were processed

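DNase-seq of 3 libraries was used as deposited. The authors' peak lists give a signal per peak, scaled per library, on positions in mm10, per the labels. The false discovery rate (FDR) files that the authors deposited hold 1 q-value for each stretch of positions, none above 0.05, and how it was computed is not stated. The footprint lists that the authors deposited carry no usable score, so footprints were counted by presence. For the aligner, peak caller and footprint caller, no name or version is given (not given in the sources used here), and peaks were listed per library. Of the authors' 2 peak lists per library, the one with more rows was used.

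GENCODE M21 (basic set) supplied the lincRNA members, comparison gene types and TSSs, and sequence, CpG counts and mRNA starts from RefSeq GRCm38.p6. A gene took the highest signal over its member windows. Copied share is the percentage of 50-bp words, taken every 10 bp, found elsewhere on the 21 chromosomes. Python 3.11.15, pandas 2.3.3, numba 0.67.0, pysam 0.24.0, samtools 1.23.1 and bedtools 2.31.1 were used, and the overlap and copied share code was tested on simulated data. Shares are given per library and as mean and SD over the 3 libraries, and differences within libraries were tested by exact paired sign-flip permutation.

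Named genes were the 15 with the highest worst percentile, the 5 with the most footprints by their lowest library, the 5 strongest without a peak in replicate 1, the 5 CpG-poorest with a peak in all 3 libraries, the 5 CpG-densest CpG-rich genes without any peak, and all list members. The members, lists, motifs and sequences shown were chosen with earlier results of these data known. Genes are not replicates, and no test was made over them.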

Additional observations from a re-analysis of the deposited data

How the results depend on the processing

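The longer peak list, windows of 1000 bp and the basic annotation were varied one at a time, as were the distance rule, the overlap rule and the libraries. The number of lincRNA genes with a peak in all 3 libraries was 325 in the main analysis and 584 with no distance rule, which adds genes beside coding promoters. It ran from 224 to 470 under the other settings that kept all 3 libraries, and from 327 to 556 with 1 library left out, where a peak is needed in only 2 libraries. The percentage with a peak ran from 6.59% with equal numbers of peaks to 16.7% with windows of 2500 bp, and from 8.98% to 14.1% with 1 library left out. The difference from protein-coding genes was negative under each alternative, from -49.0 to -43.3 points, and -8.89 points with protein-coding genes weighted by CpG bin. With 1 library left out it was -48.7 to -46.2 points. The excess over moved windows was positive under each, from 5.18 to 12.6 points, and from 6.86 to 9.92 with 1 library left out. The percentage with a footprint ran from 8.13% to 14.8%, and from 7.77% to 12.4% with 1 library left out. The comprehensive annotation, the RefSeq distance rule and the CpG weighting were chosen after seeing the data. Among 71 named genes the mean percentile moved by more than the spread between libraries for 4 with the shorter peak list, 6 with windows of 500 bp and 10 with windows of 2500 bp. Of 33 named genes with a peak in all 3 libraries, 3 lost one with the shorter list, 1 with windows of 500 bp and 0 with windows of 2500 bp. No replicate block between groups could be fitted to 1 group, and gene types were paired within libraries. Read depth is unknown, so a promoter without a peak may lie below what a library could detect, and with 3 libraries no exact test can go below p = 0.25.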
